A study of Mus musculus with 188 samples.

Results

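Nicotinamide N-methyltransferase (Nnmt) was examined across the mouse strains of an aorta expression survey, as all probe sets annotated to Nnmt over every strain mean, the 4 parental strains and the recombinant inbred families, together with its relation to adipocyte genes. The annotation gave 1 such probe set, 1432517_a_at, out of 22327 probe sets tested and 11725 genes named, and the suffix _a_at marks a probe set whose probes match alternative transcripts of 1 gene. Nnmt was selected on its own log2 values over the strain means of these same arrays and on their relation to adipocyte genes, so its levels by strain, by parent and by family, and its correlation with adipocyte genes, are given as descriptions with no test.

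The survey covered the aorta of male mice aged 16 weeks, fed chow and given no treatment, on 188 Affymetrix HT_MG-430A arrays from 94 strains. The recombinant inbred strains were 28 of the AXB/BXA family (from A/J and C57BL/6J), 27 of the BXD family (from DBA/2J and C57BL/6J) and 10 of the BXH family (from C3H/HeJ and C57BL/6J). A further 28 were other inbred strains, with A/J, DBA/2J, C3H/HeJ and C57BL/6J among them. The labels give every mouse as wild-type, but the names of 2 BXD strains carry mutant alleles, BXD24/TyJ-Cep290<rd16>/J and BXD29-Tlr4<lps-2J>/J, and both are counted in the BXD family. The 2 arrays of BXD32/TyJ, whose descriptions carry an unexplained suffix, were set aside, which left 186 arrays of 93 strains. Of these, 84 strains had 2 or more arrays and 9 had 1. Whether arrays of 1 strain stand for different mice is not stated in the labels. The spread between them, and every p-value, may therefore be partly technical. The deposited values are log2 expression values after RMA, 1 per probe set and array, with array medians between 4.55 and 4.88 and all values between 2.17 and 13.50. The file holds no detection call, and the number of arrays per strain limits the precision of each strain mean.

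Nnmt encodes a cytosolic enzyme that transfers a methyl group from S-adenosylmethionine to nicotinamide. The products are 1-methylnicotinamide, which is excreted or oxidised, and S-adenosylhomocysteine, so the reaction draws on both the NAD salvage pathway and the methionine cycle. The enzyme is abundant in liver and in adipose tissue, and the mouse aorta is surrounded by perivascular fat with many brown-fat-like cells. In whole-tissue RNA, fewer cells of a type and less RNA per cell cannot be told apart.

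Markers of several tissues were present, to different extents, in these libraries. Smooth muscle genes of the aortic wall were measured with 8 of 10 listed, and Myh11, the smooth muscle myosin heavy chain, lay between 6.94 and 10.42 on the log2 scale over the arrays. Adipoq, the adipocyte hormone adiponectin, lay between 11.02 and 12.53, and Ucp1, the uncoupling protein of brown fat, between 9.75 and 13.18. A score was formed for each list of markers as the mean of its members' log2 values after centring each on its mean over arrays. Of the 186 arrays, 67 had a score above 1 for thymocyte genes or for squamous epithelium genes, and 11 had a score above 1 for hepatocyte genes. These scores are given below beside the Nnmt values they moved with.

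Nnmt varied widely over the strains. Single arrays had a lowest value of 3.76, a median of 6.93 and a highest value of 10.02 on the log2 scale. Strain means ran down from 9.78 in BXA14/PgnJ to 4.10 in RIIIS/J, a span of 5.69 on the log2 scale or 51.6-fold. The SD among strains was 1.18 and the SD between arrays of a strain was 0.519 (84 strains, 177 arrays). The intraclass correlation, the share of the variance that lay between strains, was 0.839 for Nnmt, while its median over all probe sets was 0.182. Ranked from the highest, Nnmt stood at 58 for the among-strain SD and at 53 for the intraclass correlation among all probe sets.

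**Figure D1:**
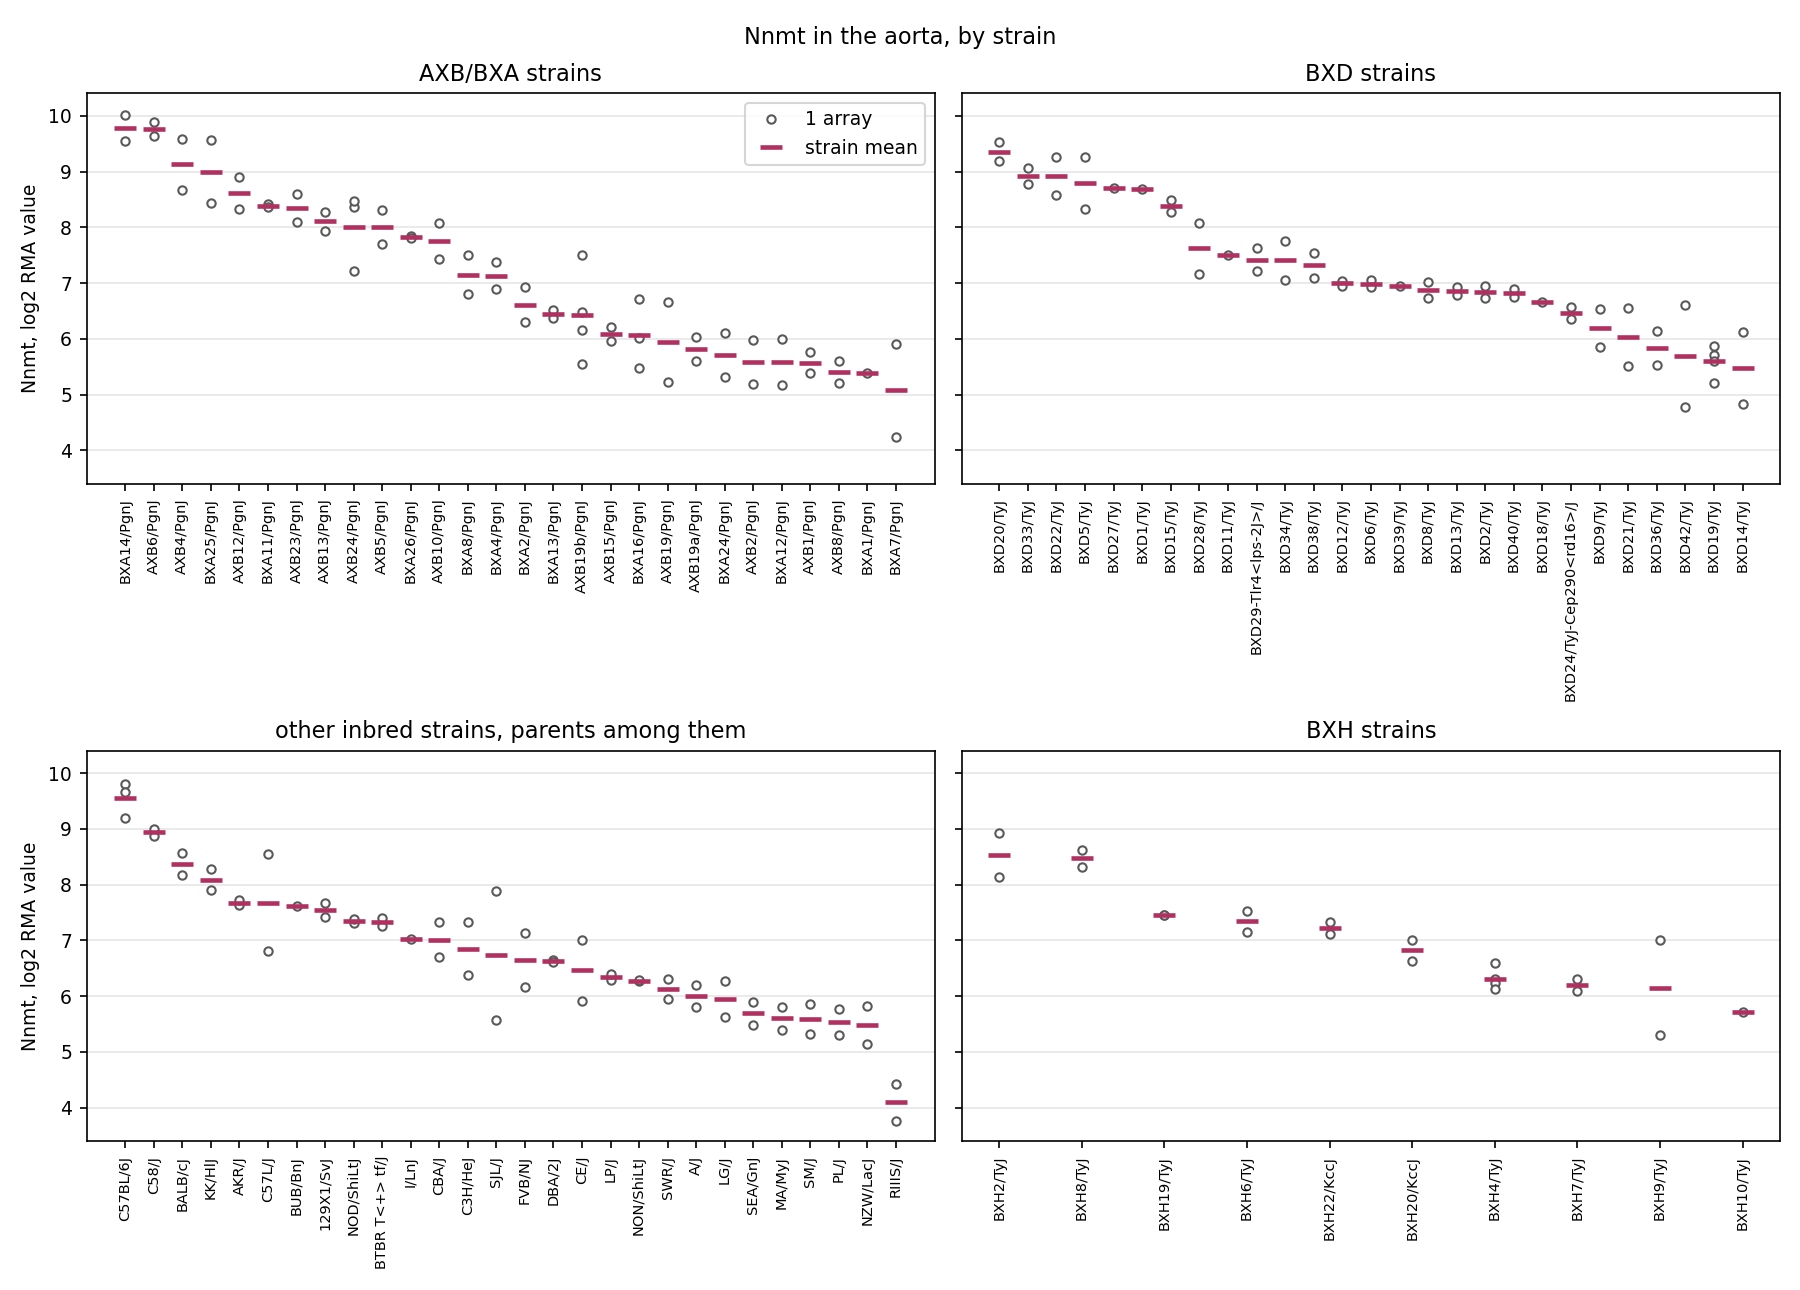
Log2 RMA values of Nnmt (vertical axis) by strain (horizontal axis, ordered by mean within each panel) for AXB/BXA, BXD, other inbred and BXH strains. Circles are single arrays and bars are strain means. C57BL/6J heads the inbred strains at 9.55, RIIIS/J lies lowest at 4.10, and most neighbouring strains overlap.

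Neighbours in the order of strain means were rarely separated. Among 92 adjacent pairs of strains, the arrays overlapped in 90, and the gap exceeded its standard error in 1, the step between RIIIS/J and the strain above it. Sorting this many means puts neighbours close together, so the order of adjacent strains carries little information.

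C57BL/6J was close to the top. Its 3 arrays had 9.81, 9.66 and 9.19, a mean of 9.55 ± 0.33 (SD, n = 3). Of the other 92 strains, 90 had a lower mean, and 85 had every array below the lowest C57BL/6J array. BXA14/PgnJ (10.02 and 9.55) and AXB6/PgnJ (9.64 and 9.90) had means above it, at 9.78 and 9.77, but their arrays overlapped those of C57BL/6J. The BXD32/TyJ arrays that were set aside averaged 9.46, with 9.92 on the higher one.

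Hepatocyte genes were high on some of these arrays. The BXA14/PgnJ array with 9.55 for Nnmt had a hepatocyte score of 6.87 and an albumin (Alb) level of 12.74. The other BXA14/PgnJ array, with the higher Nnmt value of 10.02, had a hepatocyte score of 0.20 and an albumin level of 4.94. Of the C57BL/6J arrays, the one with 9.66 for Nnmt had a hepatocyte score of 2.91 and an albumin level of 9.02, while the arrays with 9.81 and 9.19 had hepatocyte scores of -0.07 and -0.11. In both strains, the arrays with low hepatocyte scores had Nnmt values of 9.19 or above. Both AXB6/PgnJ arrays had low hepatocyte scores, -0.26 and 0.09.

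Among the inbred strains, those after C57BL/6J were C58/J at 8.94 (arrays 8.88 and 9.01), BALB/cJ at 8.38 (8.18 and 8.57) and KK/HlJ at 8.09 (7.90 and 8.28). C58/J and C57L/J share ancestry with C57BL/6J. The C57L/J arrays differed widely, with 8.55 and 6.81, and averaged 7.68. At the low end stood PL/J at 5.53, NZW/LacJ at 5.49 and RIIIS/J at 4.10.

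RIIIS/J, the lowest strain, had Nnmt values of 3.76 and 4.43. Its arrays also had thymocyte scores of 4.74 and 4.92, adipocyte scores of -0.94 and -0.97 and endothelial scores of -1.29 and -1.43. The part of these other tissues in its Nnmt level was not tested. Without the RIIIS/J arrays the SD among strains was 1.15.

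Arrays of a strain differed by more than 1 on the log2 scale in 13 strains. SJL/J had 7.89 and 5.58, BXD42/TyJ had 6.61 and 4.78, BXH9/TyJ had 7.01 and 5.30, and BXA7/PgnJ had 5.91 and 4.24. The SJL/J array with 7.89 had a hepatocyte score of 2.25 and a thymocyte score of 2.26. In 12 of the 13 strains, the array with the lowest Nnmt had a higher score for thymocyte or squamous genes, whichever was larger, than the array with the highest Nnmt. In 12 of the 13 it also had the lower adipocyte score. Some of these differences were very small. Adipocyte scores were -0.2125 on the low and -0.2124 on the high array in SJL/J, and -0.049 and -0.023 in BXA25/PgnJ. In AXB24/PgnJ the thymocyte scores were -0.819 and -0.838, both low. In BXH9/TyJ, for example, the thymocyte score was 4.67 on the low array and -0.41 on the high one. In BXD42/TyJ the squamous score was 4.07 on the low array and -1.05 on the high one. Arrays with thymocyte and squamous scores of 1 or less left 40 strains with 2 or more arrays. Over these the SD among strains was 1.11 and the intraclass correlation 0.903.

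The 3 other parents of the recombinant inbred families all had far lower values on the 1 Nnmt probe set than C57BL/6J. Whether the sequence of these strains differs under its probes could not be examined. A/J had 6.20 and 5.81, against 9.81, 9.66 and 9.19 in C57BL/6J. The means were 6.01 ± 0.28 (SD, n = 2) in A/J and 9.55 ± 0.33 (SD, n = 3) in C57BL/6J, a difference of -3.55 on the log2 scale, or 11.7-fold lower in A/J. The highest A/J array lay 2.98 below the lowest C57BL/6J array.

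DBA/2J had 6.66 and 6.61, a mean of 6.63 ± 0.03 (SD, n = 2), which was 2.53 below the lowest C57BL/6J array at its highest array. The difference of means was -2.92 on the log2 scale, or 7.57-fold lower in DBA/2J. C3H/HeJ had 7.32 and 6.39, a mean of 6.86 ± 0.66 (SD, n = 2), with a difference of -2.70, or 6.50-fold lower in C3H/HeJ. Its highest array lay 1.86 below the lowest C57BL/6J array. The 3 differences share the C57BL/6J arrays and are not independent of each other. With arrays of a hepatocyte score above 1 left out, they were -3.49 for A/J, -2.87 for DBA/2J and -2.65 for C3H/HeJ.

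Recombinant inbred strains carry a fixed mixture of their 2 parents' genomes, so the families show how Nnmt was distributed once parental alleles had been shuffled. The AXB/BXA strains covered the whole parental range and went beyond it. Their means had a lowest value of 5.08 (BXA7/PgnJ), a median of 6.87 and a highest value of 9.78 (BXA14/PgnJ). Against a midpoint of 7.78 between the parental means, 11 strains were nearer C57BL/6J and 17 nearer A/J. Below the A/J mean of 6.01 lay 9 strains, and above the C57BL/6J mean lay 2. The SD among strains was 1.35, against 0.566 between arrays of a strain (27 strains).

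The upper AXB/BXA strains after the first 2 were AXB4/PgnJ at 9.13 (8.66 and 9.59), BXA25/PgnJ (8.44 and 9.56) and AXB12/PgnJ at 8.62. The largest gap between neighbours in this family was 0.643, between 9.13 and 9.77. Sister lines resembled each other: AXB19/PgnJ averaged 5.94 (5.22 and 6.66), AXB19a/PgnJ 5.82 (5.60 and 6.03) and AXB19b/PgnJ 6.42 over 4 arrays between 5.55 and 7.51. Arrays of the 3 lines overlapped.

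**Figure D2:**
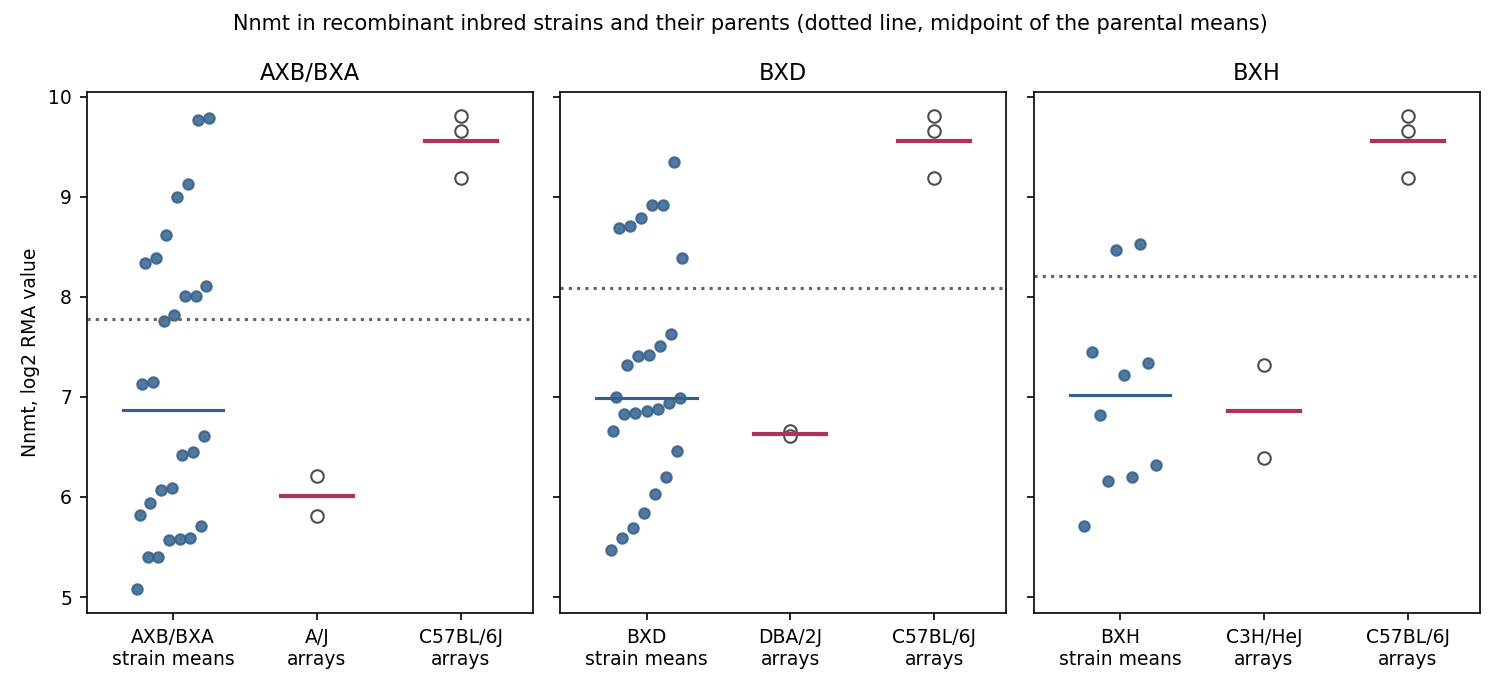
Log2 RMA values of Nnmt (vertical axis) in the 3 recombinant inbred families and their parents. Filled points are strain means, spread sideways for legibility with a bar at their median, open circles are parental arrays with a bar at their mean, and the dotted line is the midpoint of the parental means. All 10 BXH strains lie below the lowest C57BL/6J array, while 2 AXB/BXA strains exceed the C57BL/6J mean.

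Without BXD32/TyJ, the BXD strains had a lowest mean of 5.47 (BXD14/TyJ), a median of 6.99 and a highest mean of 9.35 (BXD20/TyJ). Against a midpoint of 8.09, 7 strains were nearer C57BL/6J and 20 nearer DBA/2J. The upper 7 were separated from the other 20 by the family's largest gap, 0.760, between BXD28/TyJ at 7.63 and BXD15/TyJ at 8.39. The strains with named mutant alleles averaged 6.46 (BXD24/TyJ-Cep290<rd16>/J) and 7.42 (BXD29-Tlr4<lps-2J>/J), inside the range of the family. No BXD strain exceeded the C57BL/6J mean, and 7 lay below the DBA/2J mean of 6.63. The 2 BXD28/TyJ arrays had 7.17 and 8.08, and those of BXD15/TyJ had 8.28 and 8.50, so the single arrays of these neighbours lay closer than their means.

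The BXH strains had a lowest mean of 5.71 (BXH10/TyJ, 1 array), a median of 7.02 and a highest mean of 8.53 (BXH2/TyJ). Of the 10 strains, 2 were nearer C57BL/6J than the midpoint of 8.21, namely BXH2/TyJ (8.13 and 8.92) and BXH8/TyJ (8.32 and 8.62). The step from them to the next strain, BXH19/TyJ at 7.45, was 1.02. Every BXH array lay below the lowest C57BL/6J array, and 5 strains lay below the C3H/HeJ mean of 6.86.

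In each family some strains lay outside the range of the parental means, but their distance below the lower parent has to be read against the SD between arrays of a strain, which was 0.477 in the BXD and 0.440 in the BXH family. The lowest strain of each family also had high mean scores for other tissues. The thymocyte score was 1.76 in BXA7/PgnJ and 1.88 in BXD14/TyJ, and the squamous score was 3.43 in BXD14/TyJ and 2.71 in BXH10/TyJ. In the 4 parents both mean scores lay between -1.27 and -0.76. AXB8/PgnJ, at 5.40, lay below A/J with scores of -0.79 and -1.29. The part of these tissues in the values beyond the parents was not tested. The SD among strains was 1.12 in the BXD family, 0.849 in the BXH family and 1.20 over the inbred strains. The intraclass correlation was 0.850 in AXB/BXA, 0.848 in BXD, 0.789 in BXH and 0.838 in the inbred strains.

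Nnmt and adipocyte genes moved together to a moderate degree. Of 18 listed adipocyte genes, 14 were measured, and their score correlated with Nnmt over the 93 strain means with a Pearson r of 0.41 and a Spearman rho of 0.36. Both quantities come from the same arrays and share their normalisation, and strains of a family share parents. Over deviations of single arrays from their strain mean, the r was 0.39 (177 arrays). Without the 2 strains farthest from the median adipocyte score, RIIIS/J and BXA7/PgnJ, the r over strains was 0.29. Without arrays whose thymocyte or squamous score exceeded 1 it was 0.27 over 75 strains.

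By family the r with the adipocyte score was 0.57 in AXB/BXA (28 strains), 0.39 in BXD (27 strains), 0.19 in BXH (10 strains) and 0.40 in the inbred strains (28 strains). Array numbers, given as titles, fall into 2 blocks of 92 and 96 arrays. Within the first block the r was 0.53, and within the second it was 0.24, over 49 strain means each.

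**Figure D3:**
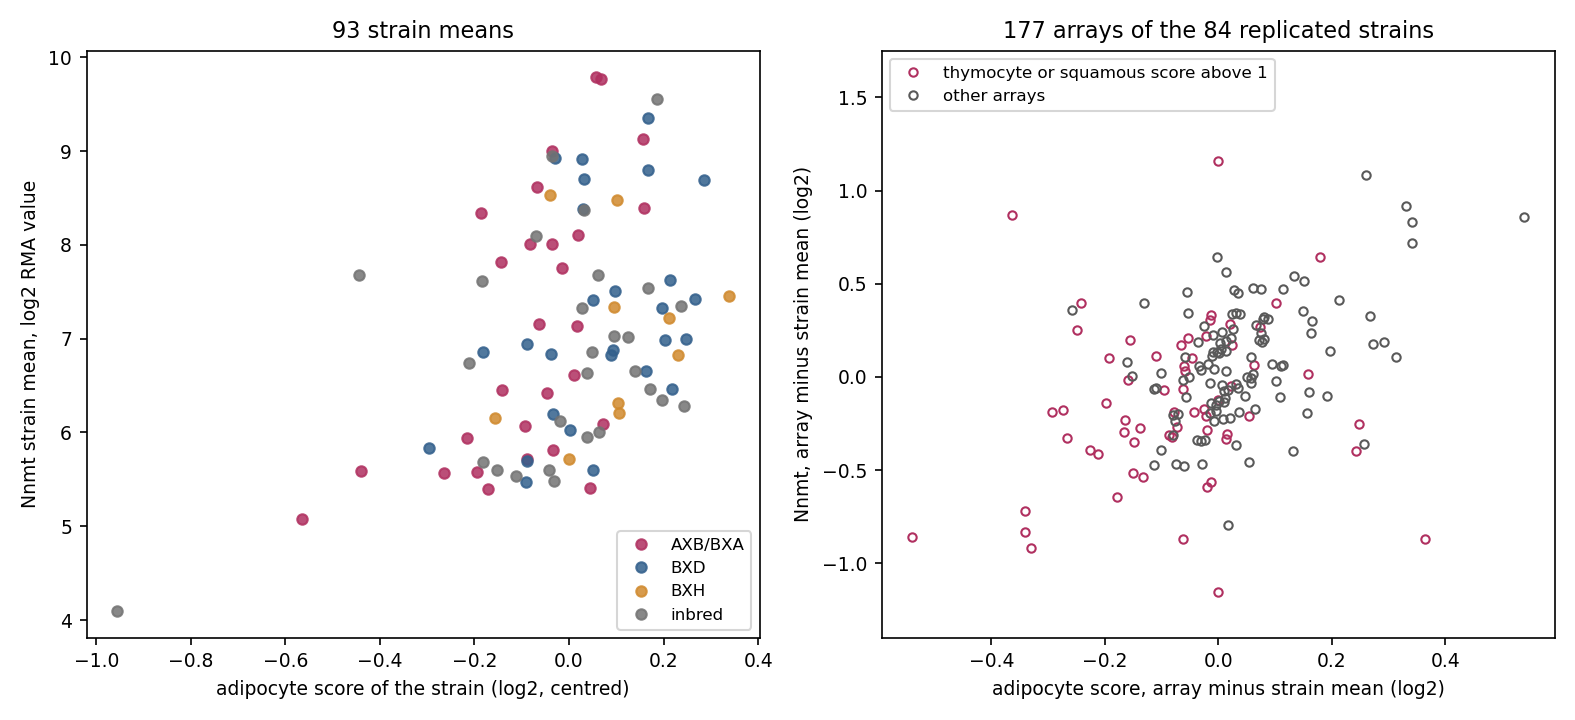
Nnmt against the adipocyte score (both on the log2 scale) for 93 strain means by family (left) and for the deviations of 177 arrays from their strain mean (right). The point at the lower left of the strain means is RIIIS/J, and r is 0.41 for strain means and 0.39 for deviations.

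The adipocyte genes did not behave alike. Over strain means, 8 of the 14 had a positive r with Nnmt, with a median of 0.18, beside a median of 0.05 over all 11724 other genes. Highest were Pnpla2, the triglyceride lipase that starts lipolysis (0.53), and Retn, the adipocyte hormone resistin (0.50). Adipoq (0.42), the insulin-responsive glucose transporter gene Slc2a4 (0.42), the lipid droplet gene Plin4 (0.42) and the hormone-sensitive lipase gene Lipe (0.35) came next. Near 0 or below lay Car3 (-0.02), the lipoprotein lipase gene Lpl (-0.04), the leptin gene Lep (-0.06) and Npr3 (-0.13). So did the fatty acid binding protein gene Fabp4 (-0.16) and the fatty acid transporter gene Cd36 (-0.17). In the 4 parents Lep had low mean levels, between 3.13 and 3.54, so its r near 0 says little. Pnpla2 had parental means between 5.57 and 6.26, around the minimum level of 6 used for the gene ranking below.

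Within strains the contrast among these genes was wider. Pnpla2 reached 0.72, Lipe 0.63, Plin4 0.60 and Adipoq 0.57, whereas Lpl had -0.27 and Cd36 -0.28. Over all 11724 other genes the median within strains was 0.11, the highest was 0.73, and 626 genes exceeded 0.5. Over strain means 20 genes exceeded 0.5.

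Retn had its highest strain mean in BALB/cJ (10.54) and its lowest in RIIIS/J (6.76), and its r with Nnmt was 0.52 in AXB/BXA, 0.46 in BXD, 0.82 in BXH and 0.68 in the inbred strains. Pnpla2 was highest in AXB6/PgnJ (7.07) and lowest in RIIIS/J (3.90), the same lowest strain as for Nnmt. Its r was 0.46 in AXB/BXA, 0.64 in BXD, 0.22 in BXH and 0.57 in the inbred strains.

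**Figure D4:**
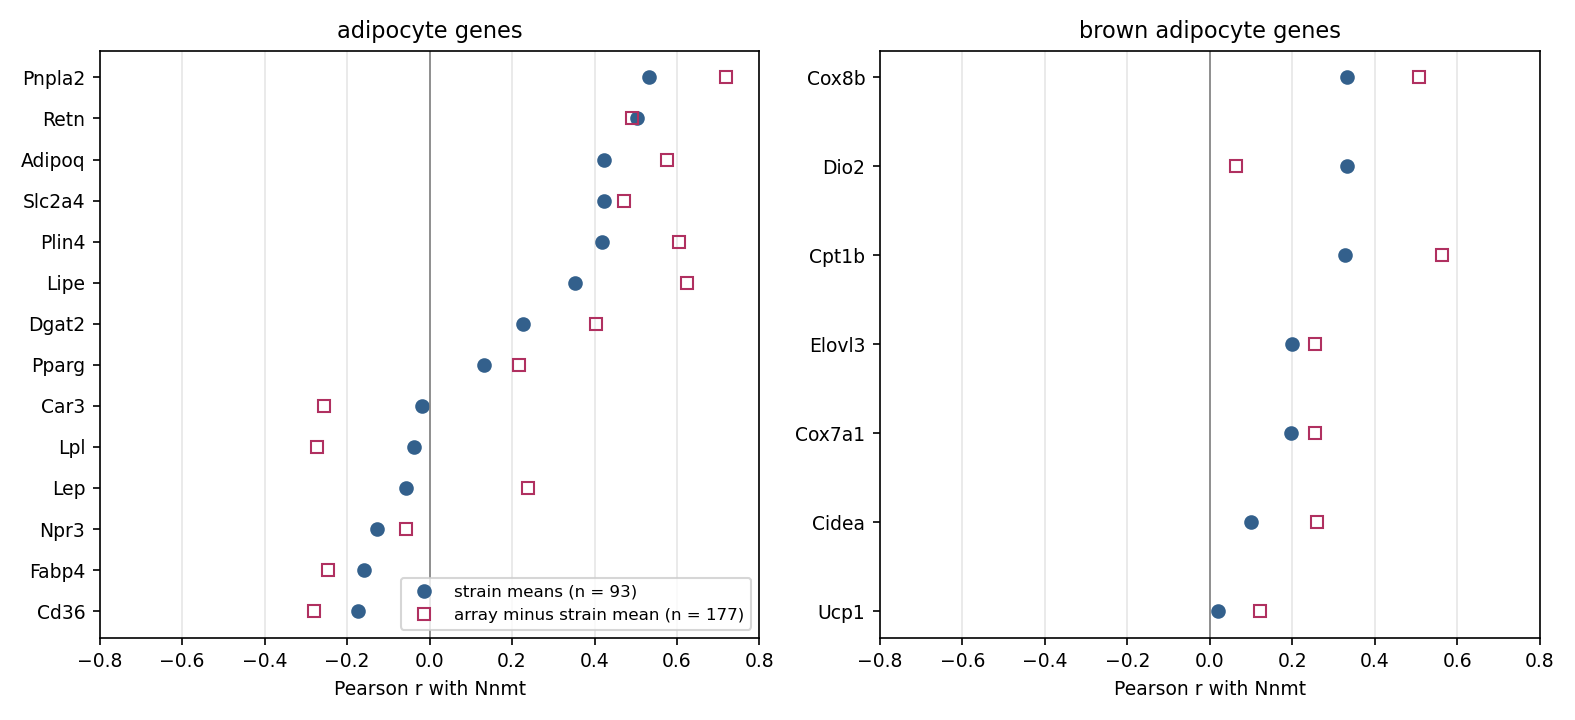
Pearson r with Nnmt (horizontal axis) for the 14 adipocyte genes (left) and 7 brown adipocyte genes (right), ordered by the r over strain means. Filled circles are 93 strain means and open squares 177 array deviations, and adipocyte genes run from 0.53 (Pnpla2) to -0.17 (Cd36) over strain means.

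Brown adipocyte genes gave an r of 0.32 for their score, with 7 of 7 measured members positive. The highest were Cox8b (0.33), a cytochrome oxidase subunit gene, Dio2 (0.33), the thyroid hormone deiodinase, and Cpt1b (0.33), which loads fatty acids into mitochondria, while Ucp1 had 0.02. By family the score's r was 0.54 in AXB/BXA and 0.58 in BXD, 0.02 in the inbred strains and -0.46 in BXH.

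Other tissue lists were set beside these. The endothelial score had an r of 0.31 with Nnmt over strains and 0.61 within strains, higher within strains than the adipocyte score's 0.39. The hepatocyte score had 0.35 over strains and 0.12 within strains. The smooth muscle score had 0.18, the fibroblast score 0.01, the macrophage score -0.12 and the skeletal muscle score -0.07 over strains. Within strains the thymocyte score had -0.31 and the squamous score -0.36. The part of these cell types in the relation of Nnmt to adipocyte genes was not tested.

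The genes most like Nnmt over the 93 strain means, among 4828 with a mean level of at least 6, were led by Dgat1 (0.55), the enzyme of the last step of triglyceride synthesis. Abhd15 (0.54), which takes part in the control of lipolysis by insulin in adipocytes, and Cenpo (0.54), a centromere protein, followed. Next were Spg21 (0.53), Pcx (0.53), the pyruvate carboxylase gene, Gnmt (0.52), Kcnk3 (0.52), a potassium channel, 2010003K11Rik (0.52), Nr1h3 (0.51), the oxysterol receptor gene LXR alpha, and Pex6 (0.51), a peroxisomal import factor. Gnmt was highest in BXA14/PgnJ at 9.36, and without that strain its r was 0.48. Dgat1 had its highest mean in C57BL/6J (11.19) and its lowest in RIIIS/J, and its r lay between 0.51 and 0.60 in every family.

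At the other end were Ube4a (-0.51), a ubiquitin ligase, Mxi1 (-0.48), an antagonist of MYC, and Snrpd3 (-0.47), a spliceosome protein. Stx7 (-0.47) and Vamp4 (-0.45) encode membrane fusion proteins, and Ndfip2 (-0.47), Hspa14 (-0.46), Ash2l (-0.46), Pwp1 (-0.46) and Fem1b (-0.45) completed the lowest 10. Of these 10 genes, RIIIS/J had the highest mean for Snrpd3, Ndfip2, Hspa14, Ash2l, Pwp1, Vamp4 and Fem1b. Within strains, among the same 4828 genes, the highest r belonged to Gde1 (0.73), Nadk (0.73), Dgat1 (0.72), Grina (0.72) and Car5b (0.71), and the lowest to Cbfb (-0.64), Fam107b (-0.62), Eid1 (-0.61), Mtf2 (-0.60) and Zbtb18 (-0.60). Of the main components of the within-strain variation, the first, with 30.2% of the variance, had an absolute r of 0.45 with Nnmt and 0.36 with the adipocyte score. The second, with 16.7%, had 0.23 and 0.42, and the third, with 10.6%, had 0.50 and 0.69.

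The 6 nearest measured genes in the gene order had an r with Nnmt between -0.16 and 0.25 over all strain means. On one side, Gm5617 had an r of 0.05 over strain means, Rbm7, an RNA-binding protein of the nuclear exosome, -0.16, and Rexo2, a mitochondrial RNA exonuclease, 0.25. On the other side, Zbtb16, a transcriptional repressor, had 0.11, and the serotonin receptor genes Htr3a and Htr3b had 0.11 and 0.18. Within families some values were larger, with 0.50 in AXB/BXA and -0.41 in BXH for Rexo2, and 0.37 in BXD and -0.65 in BXH for Rbm7. Within strains Gm5617 had 0.59 and Rexo2 0.54.

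Further along the chromosome that carries Nnmt, several genes had a large absolute r with it. They are named because of their values. The minimum level of 6 was not applied here, and several had low mean levels, such as 2310030G06Rik (3.99), Adpgk (4.06), Apoc3 (4.38) and Fez1 (4.93). Of the 20 genes with the largest absolute r, 6 lay on that chromosome in AXB/BXA, 3 in BXD, 1 in BXH and 3 in the inbred strains, while 5.43% of all genes lie there. Those of the inbred strains were Parp3, Gpx1 and Ube4a. Over all strain means 4 of the 20 lay there (Adpgk, Spg21, Ube4a and Oaf), and within strains 0. In AXB/BXA they were Fez1 (0.72), Sc5d (0.71), 2310030G06Rik (-0.69), Oaf (0.65), Snx1 (-0.65) and Ei24 (0.61). Sc5d, a sterol desaturase of cholesterol synthesis, also had 0.67 in BXD, but -0.54 in BXH and -0.41 in the inbred strains. In BXD, Apoc3, an apolipoprotein gene, had 0.67 and Fli1 0.64, and in BXH Alg9 had 0.93 over 10 strains. Apoc3 is also a member of the hepatocyte list, whose score had an r of 0.57 with Nnmt in BXD. The part of hepatocyte RNA in the r of Apoc3 was not tested.

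Genes that feed or use the products of the Nnmt reaction were listed by role, with 52 of 75 listed genes measured. Across strains, 33 of the 52 passed limma's moderated F test at an adjusted p below 0.05, against 46.5% of all probe sets. By role these were 5 of 12 genes of NAD salvage and synthesis, 7 of 11 NAD users and nicotinamide sources and 11 of 16 genes of the methionine cycle and transsulfuration. There were also 4 of 6 genes of the polyamine pathway and 6 of 7 other small molecule methyltransferases. Adipocyte genes passed in 11 of 14 and brown adipocyte genes in 7 of 7. Each list gene stands for its probe set with the highest mean, while the 46.5% covers all probe sets. The shares are therefore not fully alike, here and in the comparisons of list genes with all probe sets below.

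In the list of NAD salvage and synthesis, Nadk, the NAD kinase that makes NADP, varied among strains (adjusted p = 3.75e-05, limma). Its lowest strain mean was the 8.77 of RIIIS/J. Its highest was the 10.23 of BTBR T<+> tf/J. Its r with Nnmt was 0.39 over strains and 0.73 within strains. Nnt, the mitochondrial transhydrogenase gene, part of which is deleted in C57BL/6J, had its lowest strain mean in C57BL/6J (6.01) and its highest in BUB/BnJ (9.18). Its r with Nnmt was -0.23. The C57BL/6J arrays had 5.63, 5.34 and 7.04 for Nnt, so one overlapped those of other parents. Nmnat3, Nmrk1 and Ido1 also passed, with r values of 0.20, 0.10 and 0.16.

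In the methionine cycle, Ahcy, which breaks down the S-adenosylhomocysteine that Nnmt releases, varied between 7.06 in AKR/J and 10.04 in AXB1/PgnJ (adjusted p = 1.51e-09, limma) and had an r of 0.35 with Nnmt. Gnmt, which also consumes S-adenosylmethionine, varied with an adjusted p of 2.03e-04 by the same test. The lowest r in this list was that of Ahcyl2 (-0.34). Mat1a, Bhmt and Bhmt2 did not pass the test, and each had its highest mean in BXA14/PgnJ, with array values of up to 9.40, 11.87 and 7.39. The BXA14/PgnJ array with a hepatocyte score of 6.87 had a score of 2.23 for this list. The other BXA14/PgnJ array, with a hepatocyte score of 0.20, had 0.02. The part of hepatocyte RNA in these means, and in that of Gnmt, was not tested. In the polyamine list, Srm, spermidine synthase, had 0.28 and Sms, spermine synthase, -0.41.

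Set against C57BL/6J, few of these genes differed in the parents. In A/J, 2 of the 52 pathway genes were higher, against 0.269% of all probe sets, and 1 was lower, against 0.376% (0.645% in either direction). In DBA/2J limma called none higher, against 0.287%, and 1 lower, against 0.237% (0.524% in either direction). In C3H/HeJ it called none higher, against 0.511%, and 3 lower, against 0.735% (1.25% in either direction). At an unadjusted p below 0.05, 5 of the 52 were higher in A/J and 4 lower, against 4.05% and 4.86% of all probe sets. By the same rule 4 were higher in DBA/2J and 5 lower, against 2.55% and 2.14%, and 7 were higher in C3H/HeJ and 8 lower, against 5.71% and 7.31%. The median difference over all probe sets was -0.0107 in A/J, 0.00454 in DBA/2J and -0.0152 in C3H/HeJ on the log2 scale. These contrasts again share the C57BL/6J arrays. When each pair of parents was fitted alone, with fewer residual degrees of freedom, 0 of the 52 passed limma's test in any of the 3 contrasts, against 0.0448% of all probe sets in A/J, 0.0896% in DBA/2J and 0.116% in C3H/HeJ. In these fits 9 had an unadjusted p below 0.05 in A/J, against 7.14% of all probe sets, 8 in DBA/2J, against 3.48%, and 13 in C3H/HeJ, against 9.62%.

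Parp3, a DNA-repair ADP-ribosyltransferase that releases nicotinamide, was lower in all 3. It had 7.10 and 7.18 in A/J, 7.36 and 7.24 in DBA/2J, 7.32 and 7.11 in C3H/HeJ and 8.32, 8.47 and 8.33 in C57BL/6J. No array of the other parents reached the C57BL/6J arrays. The log2 differences from C57BL/6J were -1.24 ± 0.24 (SE, adjusted p = 5.46e-04, limma) in A/J, -1.07 ± 0.24 (adjusted p = 0.00616) in DBA/2J and -1.16 ± 0.24 (adjusted p = 0.00138) in C3H/HeJ. Over the inbred strain means its r with Nnmt was 0.76, but it was -0.40 in BXD and -0.62 in BXH. With 1 array left out at a time, the adjusted p rose to 0.0563 without A/J replicate 1, to 0.0822 and 0.248 without DBA/2J replicate 1 or 2, and to 0.128 without C3H/HeJ replicate 2. Parp3 lies on the same chromosome as Nnmt, 275 genes away in the gene table.

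**Figure D5:**
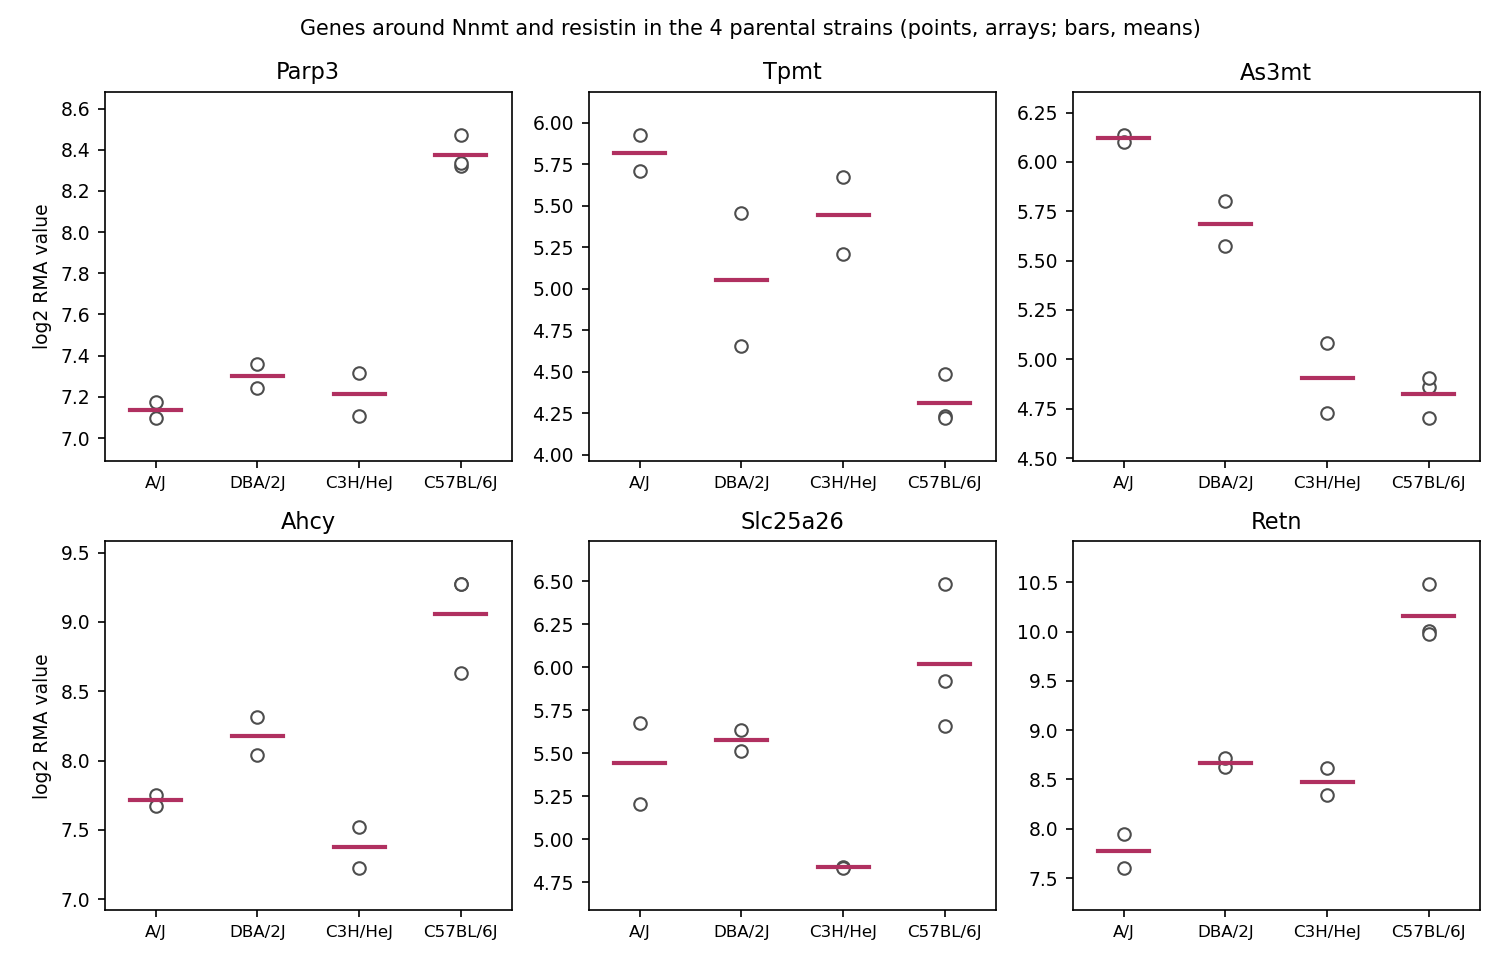
Log2 RMA values (vertical axes, each panel on its own scale) of 5 pathway genes that passed in a parental contrast and of Retn, by strain. Circles are arrays and bars are means. Every Parp3 and Retn value of the 3 other parents lies below all C57BL/6J arrays, although the Retn difference in DBA/2J did not pass (adjusted p = 0.081, limma).

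The methyltransferases Tpmt, which methylates thiopurines, and As3mt, which methylates arsenic, were higher in A/J. Tpmt had 5.93 and 5.71 in A/J, against 4.23, 4.48 and 4.22 in C57BL/6J, a log2 difference of 1.51 ± 0.37 (SE, adjusted p = 0.0168, limma). As3mt had 6.14 and 6.10 in A/J, against 4.86, 4.70 and 4.91 in C57BL/6J, a log2 difference of 1.30 ± 0.29 (SE, adjusted p = 0.00456, limma). In both genes the arrays of A/J and C57BL/6J did not overlap. Over strain means their r with Nnmt was -0.05 for Tpmt and -0.08 for As3mt. Neither gene passed with 1 A/J array left out: for Tpmt the adjusted p was 0.451 without replicate 1 and 0.111 without replicate 2, and for As3mt 0.169 and 0.0796. Without C57BL/6J replicate 1 it was 0.0841 for Tpmt.

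Ahcy and Slc25a26, which carries S-adenosylmethionine into mitochondria, were lower in C3H/HeJ. Ahcy had 7.23 and 7.52 in C3H/HeJ, against 9.27, 9.28 and 8.63 in C57BL/6J, a log2 difference of -1.69 ± 0.41 (SE, adjusted p = 0.012, limma). Slc25a26 had 4.84 and 4.84 in C3H/HeJ, against 5.92, 6.49 and 5.66 in C57BL/6J, a log2 difference of -1.18 ± 0.30 (SE, adjusted p = 0.022, limma). Arrays of the 2 strains did not overlap for either gene. Without arrays of a hepatocyte score above 1, C57BL/6J replicate 2 among them, the adjusted p was 0.0523 for Ahcy and 0.191 for Slc25a26. Both calls were also lost without either C3H/HeJ replicate and without C57BL/6J replicate 1 or 2, with adjusted p-values between 0.079 and 0.263 for Ahcy and between 0.0532 and 0.335 for Slc25a26.

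Of the 14 adipocyte genes, limma called 1 in A/J (0.645% of all probe sets), 0 in DBA/2J (0.524%) and 1 in C3H/HeJ (1.25%), Retn in both. At an unadjusted p below 0.05, 1 was lower in A/J (4.86% of all probe sets), 2 in DBA/2J (2.14%) and 3 in C3H/HeJ (7.31%). By the same rule 0 were higher in A/J (4.05%), DBA/2J (2.55%) and C3H/HeJ (5.71%). Retn was lower in A/J, with 7.94 and 7.61, and in C3H/HeJ, with 8.61 and 8.34. The 3 arrays of C57BL/6J had Retn values between 9.98 and 10.49. The log2 differences were -2.38 ± 0.41 (SE, adjusted p = 6.03e-05, limma) in A/J and -1.68 ± 0.41 (adjusted p = 0.0142) in C3H/HeJ. DBA/2J had 8.63 and 8.71, a difference of -1.49 ± 0.41 (adjusted p = 0.081). Without arrays of a hepatocyte score above 1 the adjusted p in C3H/HeJ was 0.137, and it was 0.121 and 0.337 without C3H/HeJ replicate 1 or 2 and 0.142 without C57BL/6J replicate 2. When arrays whose thymocyte or squamous score exceeded 1 were dropped, the DBA/2J difference passed (adjusted p = 0.0139). Adipoq had 12.14 and 12.22 in A/J, against 12.34, 12.19 and 12.40 in C57BL/6J, and its log2 difference of -0.13 ± 0.15 (SE) did not pass.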

How the data were processed

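Values were the authors' deposited log2 expression values, 1 per probe set and array in 1 table of the series. The submitters' processing notes name GCOS and RMA (background adjustment, quantile normalisation and a summary of each probe set's probes), with versions and genome build not given in the sources used here. Summarised values do not show whether a strain's sequence differs under a probe.

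Of 22416 probe sets, 89 controls were left out. The platform annotation gave 17783 probe sets 1 symbol, 284 several and 4260 none listed. A gene table of assembly GRCm38.p6 held 17759 of those symbols, changed 0 and served only for names and gene order. For each gene, the probe set with the highest mean over arrays was used.

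Groups were the strains in the labels. Tests used R 4.3.3 and limma 3.58.1, with Benjamini-Hochberg adjustment over 22327 probe sets and a threshold of 0.05: a moderated F test across 84 strains (177 arrays) and parental contrasts in a fit of all strains (93 residual degrees of freedom). The scripts were tested on simulated data. Figures were drawn with matplotlib 3.10.9. The most similar pair of arrays had an r of 0.994, and no arrays were merged.

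Named genes were Nnmt, the 10 highest and 10 lowest by r over strain means (mean level of at least 6), the 5 highest and 5 lowest within strains (same minimum level), 3 measured neighbours on each side, pathway members that passed in a parental contrast, and 2 to 4 members per list by r or strain range. Nnmt and the 16 gene lists were chosen with earlier results of these data known. List genes without a probe set of 1 symbol were not analysed here. Alternatives changed the arrays, covariates, probe set choice and fit.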

Additional observations from a re-analysis of the deposited data

How the results depend on the processing

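Each Nnmt difference between parents kept its direction and moved by less than the spread between arrays under 12 alternatives. With 1 array left out at a time, it lay between -3.74 and -3.35 for A/J, between -3.10 and -2.79 for DBA/2J and between -3.17 and -2.23 for C3H/HeJ. The among-strain SD lay between 1.11 and 1.20 under 8 alternatives. The r with the adipocyte score was positive under all 15 alternatives, hepatocyte and RIIIS/J exclusions (added after seeing the data) among them, between 0.188 (BXH strains) and 0.567 (AXB/BXA strains). It was 0.531 in the first block of array numbers, 0.244 in the second, 0.268 without arrays whose thymocyte or squamous score exceeded 1 and 0.294 without RIIIS/J and BXA7/PgnJ. The causes of these shifts were not tested.

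Counts moved more. Across strains, 6852 probe sets passed when only strains with consecutive array numbers were used (fewer arrays), with 18 pathway and 4 brown adipocyte genes, against 10375, 33 and 7. When arrays whose thymocyte or squamous score exceeded 1 were dropped, 4 brown adipocyte genes passed. In that setting 270 probe sets passed for A/J and 562 for C3H/HeJ, and with the thymocyte, squamous and skeletal muscle scores as covariates 229 and 524 passed, against 144 and 278. Both settings added 1 adipocyte gene in DBA/2J, Retn, where 0 had passed (1048 probe sets had an unadjusted p below 0.05 in that contrast), and the covariates gave 6 pathway genes in C3H/HeJ. Fits of the 2 parents alone called 10 probe sets for A/J, 20 for DBA/2J and 26 for C3H/HeJ, with 0 pathway genes, and 0 adipocyte genes in A/J and C3H/HeJ. Without arrays of a hepatocyte score above 1, 120 probe sets, 1 pathway gene and 0 adipocyte genes passed for C3H/HeJ.

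With 1 array left out, the counts ran between 53 and 272 probe sets for A/J (53 without A/J replicate 1, 272 without C57BL/6J replicate 3), between 54 and 130 for DBA/2J and between 73 and 1123 for C3H/HeJ (1123 without C57BL/6J replicate 3). Pathway genes ran between 0 and 3 in A/J, 0 and 1 in DBA/2J and 0 and 5 in C3H/HeJ, and adipocyte genes between 0 and 1 in C3H/HeJ. No paired analysis was possible because replicate numbers were given in accession order. C57BL/6J replicate 3 was the only parental array in the second block of array numbers, and the part of this in the counts above was not tested. The 1 to 4 arrays per strain limit the precision of each mean.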

Other observations

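Endothelial genes followed Nnmt between arrays of the same strain more closely than most other lists. Over 177 arrays, set against their strain means, the r with Nnmt was 0.64 for Esam, an endothelial adhesion molecule, 0.63 for Tie1, a receptor tyrosine kinase, 0.62 for Cdh5, the junction protein VE-cadherin, 0.57 for Egfl7 and 0.56 for Nos3, the endothelial nitric oxide synthase. Tek, the angiopoietin receptor, had -0.03 and Pecam1 0.23. Across strains, 8 of the 9 endothelial genes passed limma's F test, beside 46.5% of all probe sets, and 7 of the 9 had their lowest strain mean in RIIIS/J. Those arrays also had high thymocyte scores, 4.74 and 4.92, whose part in these levels was not tested.

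Cyp2e1, listed as a hepatocyte gene and also active in fat, was lower in A/J, with 10.16 and 10.01, against 11.62, 11.55 and 11.55 in C57BL/6J. The log2 difference was -1.49 ± 0.31 (SE, adjusted p = 0.00204, limma), and the adjusted p was 0.0556 and 0.0895 without A/J replicate 1 or 2 and 0.0856 in the fit of the 2 parents alone. Its r with Nnmt over strain means was 0.43, and 0.67 over the inbred strains.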
